A study of Mus musculus with 6 samples.

Results

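The genes described here are 32 mouse genes of autophagy and the lysosome, chosen by name: the kinases and lipid kinase subunits that start an autophagosome, the proteins that bring membrane to it, the conjugation enzymes, the ATG8 family that is conjugated, the cargo receptors, 2 transcription factors, and membrane proteins and enzymes of the lysosome. Rows were found by symbol in all 6 expression files, and 30 of the 32 genes had a row among 22601 loci with a symbol (25001 loci in all). No gene had more than 1 row. Map1lc3b and Mcoln1 had no row under their symbols and were not analysed here. All 30 genes reached an FPKM of 1 or more in every library, so that none was lost to the minimum on low values. FPKM is the number of fragments per kilobase of transcript, scaled to the fragments sequenced, and as a value per length it allows levels to be set side by side between genes.

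RNA came from 427.1.86 cells, a mouse thymoma line, and each of the 6 conditions had 1 library. The 427 cells carried the pSUPER vector and were given DMSO, the solvent, or 1 µM PMA for 2 h after 2 h without serum, and SP2bKD cells, in which SPPL2b was targeted, were treated in the same way. The other 2 libraries came from SP2bKD cells transfected with a GFP vector, or with the GFP vector and Flag-tagged EICD, and sorted for GFP. SPPL2b is an intramembrane protease, EICD is the intracellular domain that it releases from epithin/PRSS14, a transmembrane serine protease encoded by St14, and PMA is a phorbol ester that activates protein kinase C. The labels name an siRNA against SPPL2b, whereas the methods of the study describe a stable shRNA and a line grown from a single-cell clone, so that effects of the clone and of the targeting cannot be told apart.

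Autophagy encloses parts of the cytoplasm in a membrane and delivers them to the lysosome. The ULK kinases with ATG13, and then the Beclin lipid kinase complex, start the membrane, ATG9A, ATG2A and the WIPI proteins supply lipid to it, and a conjugation system related to that of ubiquitin attaches ATG8 proteins to it, to which cargo receptors such as p62 (Sqstm1) bind. After fusion, cathepsins and glycosidases of the lysosome degrade the content, and TFEB and TFE3 are known to bind an E-box-like element, the CLEAR element, near the starts of many lysosome genes.

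Promoter windows of 300 bases, from 250 bases before to 50 bases after an annotated start, were taken from RefSeq on GRCm38.p6 for 25 of the 30 genes. They were searched on both strands for the E-box CACGTG, the CLEAR core TCACGTGA, which contains the E-box, an AP-1 element TGANTCA, an ATF4 element TGATGCAA, an antioxidant element TGACNNNGC and a FOXO element GTAAACA. The E-box was held by 7 of the 25 genes (28%: Atg14, Atg3, Atg5, Atg7, Lamp1, Ctsd and Ctsl), against 8.09% of 27025 genes with a window, and the CLEAR core by 2 (8%: Atg3 and Ctsd), against 1.12%. The antioxidant element was held by 4 (16%: Ulk2, Atg13, Ctsd and Hexa), against 13.99% of all genes, and the AP-1 element by 1 (4%: Tfe3), against 8.97%. The ATF4 and FOXO elements were in no window of the members, and in 1.03% and 4.05% of all genes. The median GC content of the 29 windows of the members was 59.3%, against 52.7% over all windows. A match is a description of the letters and does not show a bound site. The windows below belong to Ulk2 and Atg14, which were lower with PMA in both lines, to Hexa, which was higher with EICD, and to Ctsd and Lamp1, the lysosome genes with the most matches. They are written 5′ to 3′ on the strand of the gene, with every match in capitals.
Ulk2 (chr11:61855043-61855342, minus strand): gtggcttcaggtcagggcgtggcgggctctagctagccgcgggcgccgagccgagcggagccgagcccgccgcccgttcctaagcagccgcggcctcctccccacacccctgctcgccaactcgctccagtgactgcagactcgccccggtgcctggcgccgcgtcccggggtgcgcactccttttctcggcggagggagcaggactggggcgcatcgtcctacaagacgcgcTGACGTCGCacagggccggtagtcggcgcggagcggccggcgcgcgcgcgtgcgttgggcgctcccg
Atg14 (chr14:47568385-47568684, minus strand): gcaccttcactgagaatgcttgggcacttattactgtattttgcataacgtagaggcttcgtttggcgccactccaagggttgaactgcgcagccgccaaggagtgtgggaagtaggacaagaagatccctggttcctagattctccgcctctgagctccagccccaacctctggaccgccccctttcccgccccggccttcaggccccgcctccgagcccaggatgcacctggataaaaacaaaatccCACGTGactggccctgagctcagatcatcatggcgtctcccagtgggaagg
Hexa (chr9:59539290-59539589, plus strand): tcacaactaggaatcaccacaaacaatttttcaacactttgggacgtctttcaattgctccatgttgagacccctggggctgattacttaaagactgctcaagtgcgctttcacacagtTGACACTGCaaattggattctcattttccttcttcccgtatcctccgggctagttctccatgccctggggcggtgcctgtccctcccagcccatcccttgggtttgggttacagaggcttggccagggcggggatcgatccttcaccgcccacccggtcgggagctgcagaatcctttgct
Ctsd (chr7:142387778-142388077, minus strand): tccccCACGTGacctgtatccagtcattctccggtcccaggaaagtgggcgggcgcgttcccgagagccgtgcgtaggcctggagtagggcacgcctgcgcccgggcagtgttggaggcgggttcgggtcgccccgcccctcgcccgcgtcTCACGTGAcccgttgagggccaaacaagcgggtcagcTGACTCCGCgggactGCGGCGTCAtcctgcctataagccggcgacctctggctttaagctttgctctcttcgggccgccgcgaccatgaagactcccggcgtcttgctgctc
Lamp1 (chr8:13158911-13159210, plus strand): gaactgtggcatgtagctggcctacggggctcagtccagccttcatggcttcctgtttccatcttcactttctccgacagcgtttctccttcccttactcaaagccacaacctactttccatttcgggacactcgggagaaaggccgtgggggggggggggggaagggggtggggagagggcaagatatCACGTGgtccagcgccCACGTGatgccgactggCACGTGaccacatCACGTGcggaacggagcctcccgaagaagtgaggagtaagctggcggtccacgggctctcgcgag
The capitals mark an antioxidant element that starts 17 bases before the start of Ulk2, an E-box 1 base before the start of Atg14 and an antioxidant element 131 bases before the start of Hexa. In Ctsd they mark an E-box 245 bases before the start, the CLEAR core at 99 bases, and antioxidant elements at 62 and 47 bases, the last of them on the opposite strand. In Lamp1 they mark 4 E-boxes, at 61, 45, 28 and 15 bases before the start. Windows of Ulk1, Atg9a, Nbr1, Sqstm1 and Optn, which the comparisons below turn on, held none of these letters.

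The estimated depth was about 24000000 to 29000000 fragments per library, read from the steps between low FPKM values, and 10555 to 10873 loci reached an FPKM of 1. Markers of thymic epithelial cells were present, 8 of 9 at 1 FPKM or more in every library, with summed levels of 6355 to 15057 FPKM and Psmb11 under 1. Of 7 thymocyte markers 6 stayed under 1 FPKM in every library, with Cd3e and Cd4 at 0 and sums of 1.96 to 3.72. The exception was Rag1, at 1.73 to 3.50 FPKM. Macrophage markers summed to 4.50 to 8.68 FPKM, and 2 of 5 were at 1 FPKM or more in every library. These were Csf1r, at 2.37 to 7.35, and Cd68, at 1.25 to 2.58, whereas Adgre1 was at 0. Fibroblast markers summed to 0.18 to 0.50 FPKM. Sppl2b FPKM went against its label. It stood at 9.90 FPKM in 427 cells with DMSO and 6.86 with PMA, and at 13.4 and 9.37 in the libraries labelled as SPPL2b targeted. With GFP alone it was 11.4, and 13.2 once EICD was added. The study itself tested SPPL2b mRNA in its knockdown clones by real-time PCR, and it reported less PMA-induced EICD in them. St14, whose coding sequence includes EICD, stood at 69.6 FPKM with GFP alone and 614.5 once EICD was added. The loci of 9 members share bases with another protein-coding gene, in Ctsd on the same strand. The 10 loci with the highest values held 85.6% to 94.2% of the FPKM sum of a library.

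With 1 library per condition there was no replicate check, and no p-value was computed. Fold changes are log2 ratios of FPKM + 0.01, and each is followed, after ±, by the width to either side of its 95% counting interval. These intervals rest on the estimated depth and the longest annotated transcript of each gene, and they cover counting error only. Their median width to either side was 0.077 over the members and comparisons, and the widest, for Tfeb, was 0.36. Counts leave out loci that were under 1 FPKM in both libraries of a comparison. In bulk RNA, fewer cells of a type and less RNA per cell cannot be told apart.

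Levels spanned more than 2 orders of magnitude among the genes but little among the libraries. The lysosomal membrane glycoprotein Lamp1 was the highest, at 402 to 548 FPKM, followed by the protease cathepsin L (Ctsl, 351 to 487), p62 (Sqstm1, 155 to 286), Lamp2 (167 to 209), cathepsin D (Ctsd, 149 to 211) and Beclin (Becn1, 80.2 to 109). The lysosomal transcription factor Tfeb was the lowest, at 1.66 to 4.46 FPKM, while its relative Tfe3 stood at 31.6 to 41.8. The ratio of the highest to the lowest library ranged from 1.25 for Lamp2 to 2.90 for Ulk2, with a median of 1.53. It was under 1.5 for 15 genes and over 2 for 6 genes. Of the 30 genes 17 were lowest in a library with PMA and 11 in a sorted library, and 12 were highest in the library with GFP plus EICD. The same counts were not made over all loci, most of which leaned the same way. With PMA 6687 of 10643 loci were lower in 427 cells and 6845 of 10624 in SP2bKD cells, and with EICD 6216 of 10687 were higher than with GFP. The remaining levels lay in between. Among the conjugation enzymes, Atg7, which activates ATG8 proteins, ranged over 9.93 to 13.8 FPKM, the conjugating enzyme Atg3 over 19.8 to 24.9, the protease Atg4b over 22.4 to 32.6, Atg5 over 18.3 to 27.2 and its partner Atg16l1 over 15.2 to 21.6. Among the ATG8 proteins, Gabarap ranged over 60.7 to 85.4 FPKM, Gabarapl2 over 41.6 to 79.4 and Map1lc3a over 12.5 to 19.6. Cathepsin B (Ctsb) ranged over 37.2 to 47.8, and the lipid-binding proteins Wipi1 and Wipi2 over 31.2 to 43.0 and 49.9 to 72.3.

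**Figure D1:**
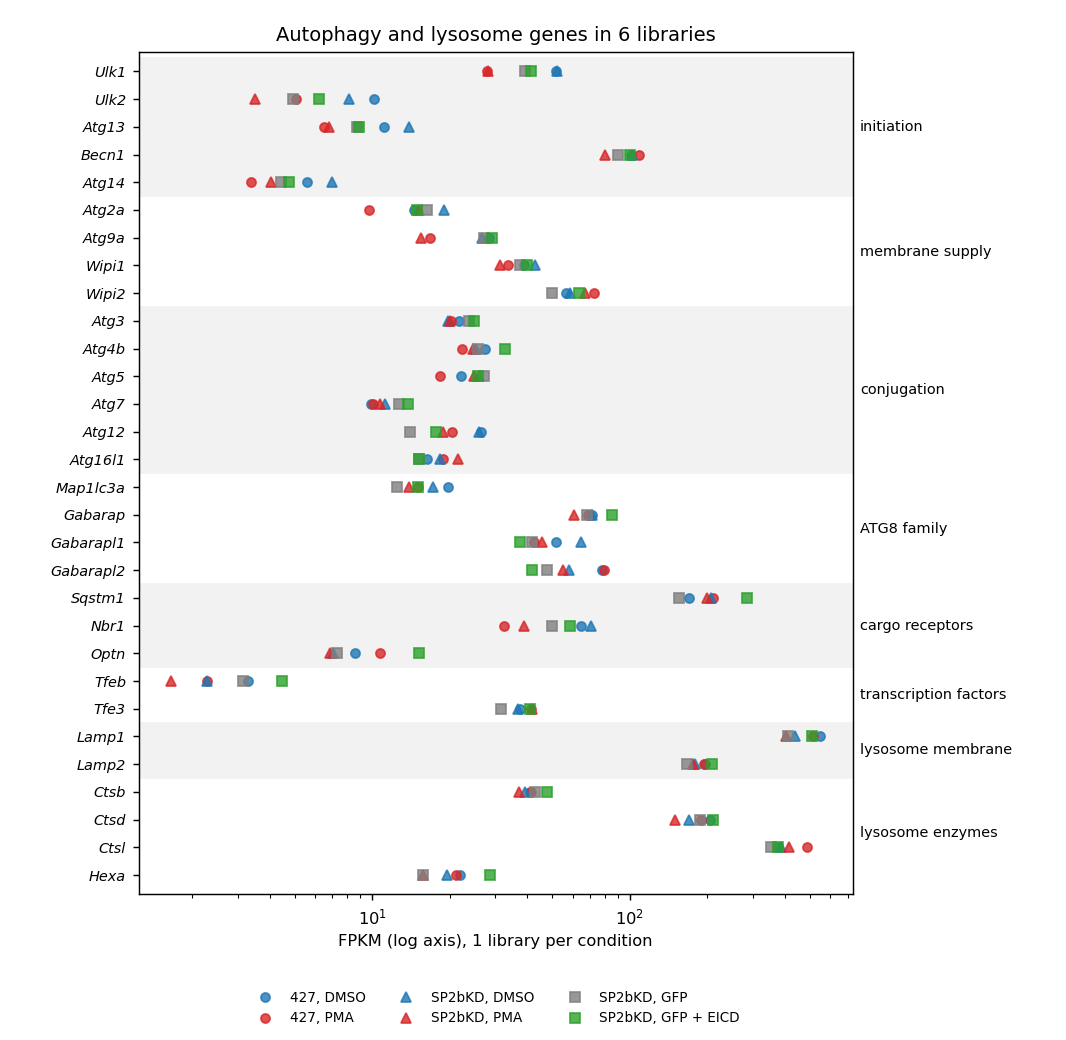
FPKM (log axis) of the 30 genes in each of the 6 libraries, ordered by role, with 1 point per library and no error bar since each condition had 1 library. Ulk1, Ulk2, Atg13, Atg14, Atg9a and Nbr1 have their red PMA points to the left of the blue DMSO points of the same shape, and Sqstm1, Optn and Hexa have the green GFP plus EICD point furthest to the right.

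The first question was how 2 h of PMA altered these genes in each line. Most genes that start autophagy stood lower with PMA in both lines, whereas the conjugation, ATG8 and lysosome genes among the 30 stood within 1.5-fold. More than 1.5-fold lower were the same 6 genes in 427 and in SP2bKD cells: Ulk1, Ulk2, Atg13, Atg14, Atg9a and Nbr1. That is 6 of 30 genes (20%) in each line, against 14.4% of all 10643 loci tested in 427 cells and 16.5% of 10624 in SP2bKD cells. At a minimum of 10 FPKM the shares of all loci were 7.87% in 427 and 10.4% in SP2bKD cells. There 28 and 26 members were tested, without Atg14 in both lines and without Ulk2 in SP2bKD cells. No member was more than 1.5-fold higher, against 8.1% of all loci in 427 cells and 7.89% in SP2bKD cells. More than 2-fold lower were Ulk2 in 427 cells, against 4.67% of all loci, and Ulk2 and Atg13 in SP2bKD cells, against 5.69%.

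Ulk1 (chr5:110784478-110810121, minus strand), the kinase that starts autophagy, stood at 51.5 FPKM (DMSO) and 27.8 (PMA) in 427 cells, 52.1 and 28.1 in the same order in SP2bKD cells, 39.0 with GFP alone and 41.3 with EICD added. Its PMA values, 27.8 and 28.1, were the lowest of the 6 and its DMSO values the highest, and the log2 change was -0.89 ± 0.056 in 427 cells and -0.89 ± 0.055 in SP2bKD cells. Its relative Ulk2 (chr11:61775490-61855282, minus strand), whose promoter window is printed above, stood at 10.2 FPKM (DMSO) and 5.05 (PMA) in 427 cells, 8.13 and 3.50 in the same order in SP2bKD cells, 4.93 with GFP alone and 6.19 with EICD added. The change was -1.01 ± 0.12 in 427 cells and -1.21 ± 0.14 in SP2bKD cells, and the GFP library lay slightly below the 427 library with PMA. Atg13 (chr2:91674618-91710576, minus strand), the adaptor of the ULK kinases, stood at 11.2 FPKM (DMSO) and 6.49 (PMA) in 427 cells, 13.9 and 6.80 in the same order in SP2bKD cells, 8.71 with GFP alone and 8.90 with EICD added. Both PMA libraries lay below the other 4, with changes of -0.78 ± 0.14 and -1.03 ± 0.13 for 427 and SP2bKD cells.

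Atg14 (chr14:47540894-47568434, minus strand) brings the Beclin lipid kinase complex to the site where the autophagosome forms, and its promoter window held the E-box shown above. Its level was 5.56 FPKM (DMSO) and 3.37 (PMA) in 427 cells, 6.96 and 4.05 in the same order in SP2bKD cells, 4.41 with GFP alone and 4.75 with EICD added. Again both PMA libraries were the lowest, with -0.72 ± 0.19 in 427 cells and -0.78 ± 0.17 in SP2bKD cells, where the low level widened the counting interval. Beclin itself differed in sign between the lines, by less than 1.5-fold and with 1 library per condition. The Becn1 locus shares 10366 bases with Cntd1 on the opposite strand, and whether the counting used strand is not given. Becn1 was 101 FPKM (DMSO) and 109 (PMA) in 427 cells, 102 and 80.2 in the same order in SP2bKD cells, 90.0 with GFP alone and 100.1 with EICD added, or 0.11 ± 0.036 with PMA in 427 cells but -0.35 ± 0.039 in the SP2bKD line.

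Atg9a (chr1:75180860-75192248, minus strand), a membrane protein whose vesicles supply the first lipid, stood at 28.4 FPKM (DMSO) and 16.7 (PMA) in 427 cells, 26.7 and 15.4 in the same order in SP2bKD cells, 27.2 with GFP alone and 29.2 with EICD added. The PMA libraries stood apart from the other 4, which lay within 26.7 to 29.2 FPKM, and the changes were -0.77 ± 0.081 and -0.79 ± 0.084 in 427 and SP2bKD cells. Its locus shares 4287 bases with a processed transcript (Gm29253) on the same strand. Atg2a, a lipid transfer protein, was the gene nearest to the threshold on the inside. It stood at 14.5 FPKM (DMSO) and 9.74 (PMA) in 427 cells, 19.0 and 15.2 in the same order in SP2bKD cells, 16.3 with GFP alone and 14.9 with EICD added, and its changes were -0.58 ± 0.089 and -0.32 ± 0.074. Wipi1 was lower in both lines (-0.22 ± 0.070 and -0.46 ± 0.070) and Wipi2 higher in both (0.36 ± 0.042 and 0.19 ± 0.043).

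The cargo receptors split. Nbr1 (chr11:101552149-101581951, plus strand), a receptor for ubiquitinated cargo, stood at 64.5 FPKM (DMSO) and 32.5 (PMA) in 427 cells, 70.5 and 38.8 in the same order in SP2bKD cells, 49.6 with GFP alone and 58.4 with EICD added. Both PMA values were below every other library, with changes of -0.99 ± 0.053 and -0.86 ± 0.049 in 427 and SP2bKD cells. Sqstm1, which codes for the related receptor p62, was instead 0.31 ± 0.034 in 427 cells and -0.048 ± 0.033 in SP2bKD cells, and Optn, a receptor for mitochondria and bacteria, 0.32 ± 0.15 and -0.032 ± 0.18.

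Downstream of these steps the values were smaller. Of the 6 conjugation genes the change furthest from 0 was that of Atg12, the ubiquitin-like protein joined to ATG5, at -0.38 ± 0.073 in 427 cells and -0.45 ± 0.075 in SP2bKD cells. Atg16l1 was higher in both lines (0.20 ± 0.094 and 0.23 ± 0.089). Of the 4 ATG8 genes Gabarapl1 was lower in SP2bKD cells by the most (-0.51 ± 0.078), and Map1lc3a in 427 cells (-0.39 ± 0.18). Tfeb was lower in both lines (-0.52 ± 0.30 and -0.46 ± 0.36), on few fragments, and Tfe3 slightly higher (0.14 ± 0.049 and 0.19 ± 0.049). Lamp2 was nearly level (-0.0061 ± 0.029 and -0.023 ± 0.030). Ctsl was 0.37 ± 0.015 in 427 cells and 0.11 ± 0.015 in SP2bKD cells.

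**Figure D2:**
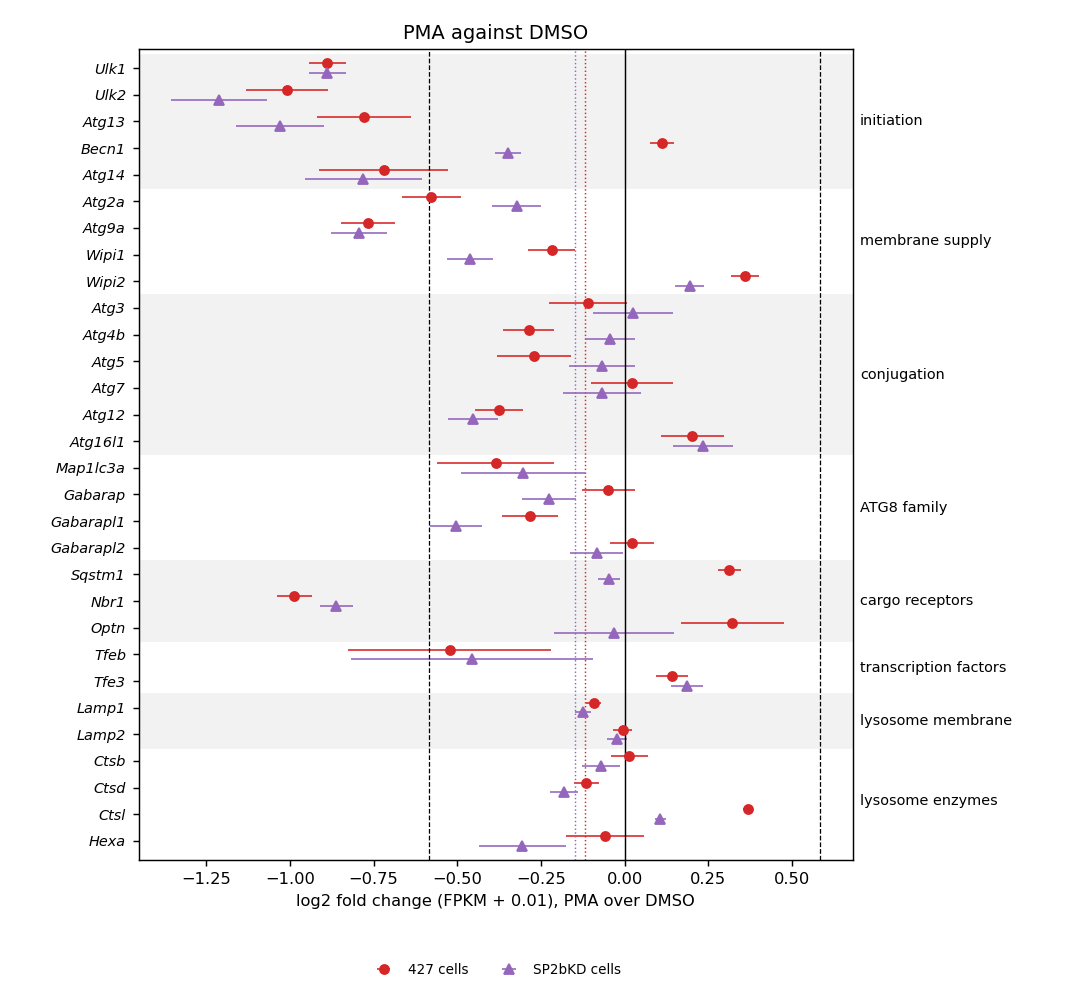
Log2 change with PMA over DMSO for the 30 genes in 427 cells (red circles) and SP2bKD cells (purple triangles), with 95% counting intervals as bars, the median of all loci as dotted lines in the same colours and 1.5-fold as dashed lines. The 6 genes with points beyond the left dashed line are the same in both lines, and no point lies beyond the right one.

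Over the whole list the median change was -0.11 in 427 cells, with 20 of 30 genes lower, and -0.20 in SP2bKD cells, with 25 lower, whereas the median over all loci was -0.12 and -0.15. By role the 5 initiation genes had medians of -0.78 and -0.89 in the 2 lines, the 4 membrane supply genes -0.40 and -0.39, the 6 conjugation genes -0.19 and -0.056, the 4 ATG8 genes -0.17 and -0.26, and the 4 lysosome enzymes -0.022 and -0.13. With the FPKM sum made equal, a scaling that the 10 highest loci dominate, the median of all loci in 427 cells moved to -0.37 and that of the members to -0.36. Under this scaling 10 of 30 members were more than 1.5-fold lower, against 28.4% of all loci. With a median log2 ratio of 0, 9.85% of all loci were higher and 10.7% lower in 427 cells, and 10.5% and 11.5% in SP2bKD cells. The 6 genes stayed more than 1.5-fold lower in both lines under every alternative that gave them a value. Summed thymic epithelial markers, a sum made up mostly of Krt5 and Krt14, were 8650.5 FPKM with DMSO and 8620.4 with PMA in 427 cells, and 6819 and 6355 in SP2bKD cells. Single markers moved more. In 427 and then in SP2bKD cells, Epcam went from 169 to 299 FPKM with PMA and from 209 to 322, Krt8 from 80.1 to 136 and from 311 to 403, Krt18 from 71.6 to 171 and from 89.6 to 154, Cdh1 from 123 to 231 and from 141 to 236, and Foxn1 from 10.98 to 6.37 and from 13.2 to 7.01. Summed macrophage markers were 8.68 and 6.41, and 7.51 and 6.83. Of these, Csf1r was 7.35 and 4.85, and 6.10 and 5.22, whereas Cd68 was 1.31 and 1.46, and 1.25 and 1.58. Their part in the result was not tested.

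The PMA changes of the 2 lines, which share no library, were close to each other gene by gene. Over the 30 genes Pearson's r was 0.90 and Spearman's rho 0.83, against 0.67 and 0.77 over 10422 loci, as a description across genes that share libraries within a line and gene models. The sign was the same for 23 of 30 genes (76.7%), with 19 lower and 4 higher in both, against 81.7% of all loci. More than 1.5-fold lower in both lines were 6 of 30 members and 9.68% of all loci. The difference between the lines, 427 minus SP2bKD, ranged from -0.26 for Atg2a to 0.46 for Becn1 with a median of 0.072. No member differed by more than 1.5-fold between the lines, against 7.52% of all loci. All loci needed 1 FPKM in only 1 library of each comparison, whereas the members reached it in every library. The correlations and shares were not matched for level. Apart from Becn1, the differences furthest above 0 were those of Sqstm1 (0.36) and Optn (0.35), and each has only 1 library per condition behind it. With equal FPKM sums the median difference was -0.21.

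The second question was whether the SP2bKD cells differed from 427 cells without EICD. With DMSO no member was more than 1.5-fold higher, against 8.25% of all 10706 loci, and none more than 1.5-fold lower, against 6.3%. Of the 6 lysosomal genes 5 stood lower in SP2bKD cells with DMSO and all 6 with PMA, within 1.5-fold and in FPKM as deposited, a direction that turned with equal FPKM sums. Lamp1 (chr8:13159135-13175338, plus strand), with 4 E-boxes in its window, stood at 548 FPKM (DMSO) and 514 (PMA) in 427 cells, 439 and 402 in the same order in SP2bKD cells, 411 with GFP alone and 510.4 with EICD added. Both 427 libraries lay above all 4 SP2bKD libraries, of which that with EICD was the closest, and the change was -0.32 ± 0.024 with DMSO and -0.35 ± 0.024 with PMA. Ctsd, with the CLEAR core in its window, was 204 FPKM (DMSO) and 189 (PMA) in 427 cells, 169 and 149 in the same order in SP2bKD cells, 187 with GFP alone and 211 with EICD added. It was lower in SP2bKD cells with both treatments (-0.28 ± 0.040 and -0.34 ± 0.040). Its value is uncertain, because its row is a newly assembled locus (chr7:142325837-142388069, minus strand) that shares 47917 bases with Ifitm10 on the same strand. Lamp2 was lower by less (-0.12 ± 0.030 and -0.14 ± 0.029).

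Gabarapl2, an ATG8 protein, stood at 78.1 FPKM (DMSO) and 79.4 (PMA) in 427 cells, 58.1 and 54.9 in the same order in SP2bKD cells, 47.6 with GFP alone and 41.6 with EICD added. The 427 libraries were above all 4 SP2bKD libraries, with changes of -0.43 ± 0.074 and -0.53 ± 0.072. Its relative Gabarapl1 went the other way, at 0.33 ± 0.077 with DMSO and 0.10 ± 0.084 with PMA. Tfeb was lower in SP2bKD cells with both treatments (-0.53 ± 0.31 and -0.47 ± 0.35), with wide counting intervals. Ulk1 was almost the same in both lines (0.015 ± 0.048 and 0.015 ± 0.062). Atg13 and Atg14 were higher with DMSO (0.32 ± 0.12 and 0.32 ± 0.16) and Ulk2 lower (-0.32 ± 0.11).

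With PMA, 1 member was more than 1.5-fold higher in SP2bKD cells, against 6.22% of all 10518 loci, and 1 more than 1.5-fold lower, against 6.22%. The former was Atg2a (0.64 ± 0.086) and the latter Optn (-0.64 ± 0.16). Just inside the threshold lay Gabarapl2 (-0.53 ± 0.072) and Ulk2 (-0.53 ± 0.15). The median over the members was -0.016 with DMSO and -0.11 with PMA, against 0.046 and 0.024 over all loci. These directions turned with equal FPKM sums, where the members had medians of 0.95 and 1.13, all loci had medians of 1.02 and 1.28, Optn with PMA was 0.61, and 88.8% and 95.7% of all loci were higher against 0.99% and 0.75% lower. Of the thymic epithelial markers, Krt8 stood at 80.1 FPKM in 427 and 311 in SP2bKD cells with DMSO, and Krt5 at 6017 and 4246. Their part in the result was not tested.

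**Figure D3:**
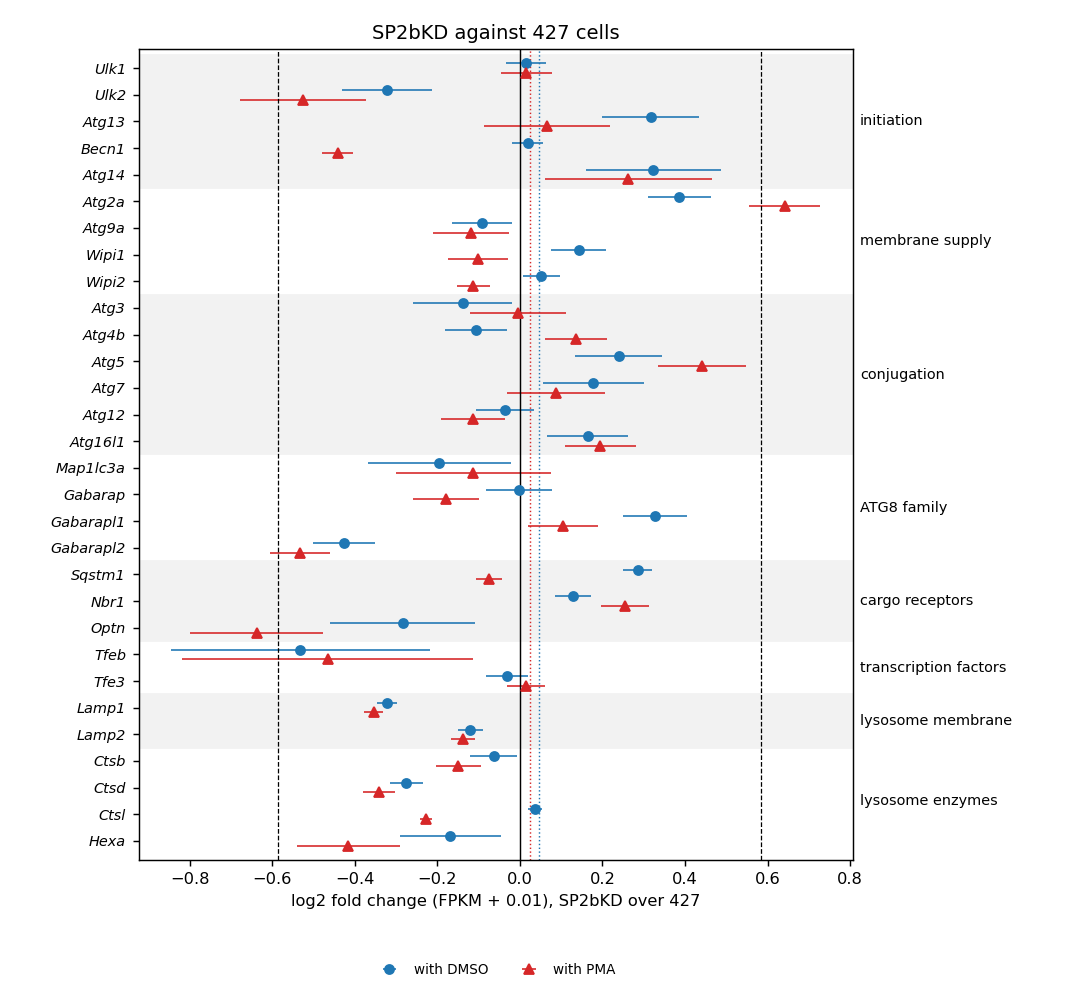
Log2 change of SP2bKD over 427 cells for the 30 genes with DMSO (blue circles) and with PMA (red triangles), with 95% counting intervals as bars, the median of all loci dotted and 1.5-fold dashed. Lamp1, Lamp2, Ctsd, Gabarapl2 and Tfeb are among the genes left of 0 with both treatments (not with equal FPKM sums), and beyond the dashed lines lie Atg2a on the right and Optn on the left, both with PMA.

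The transfected and sorted cells with GFP were the base for EICD, so they were first set against SP2bKD cells with DMSO. These libraries differ in transfection, sorting, serum and DMSO at the same time, which cannot be told apart. More than 1.5-fold lower with GFP were 5 of 30 members (Ulk2, Atg13, Atg14, Atg12 and Gabarapl1), against 12% of 10687 loci, and none was more than 1.5-fold higher, against 8.01%. Atg12 (chr18:46732417-46741579, minus strand) stood at 26.5 FPKM (DMSO) and 20.4 (PMA) in 427 cells, 25.9 and 18.9 in the same order in SP2bKD cells, 14.1 with GFP alone and 17.6 with EICD added. The sorted libraries were the 2 lowest, and the change with GFP was -0.88 ± 0.086. Gabarapl1, at 51.5 FPKM (DMSO) and 42.3 (PMA) in 427 cells, 64.6 and 45.5 in the same order in SP2bKD cells, 41.7 with GFP alone and 37.3 with EICD added, was likewise lowest in the library with EICD and second lowest with GFP (-0.63 ± 0.084).

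All 5 initiation genes were lower with GFP, with a median of -0.66, and all 4 ATG8 genes, with a median of -0.37, whereas over all members the median was -0.21 and over all loci -0.079. Of the genes that were lower with PMA, Ulk2 had -0.72 ± 0.14 with GFP, Atg13 -0.67 ± 0.13, Atg14 -0.66 ± 0.18, Nbr1 -0.51 ± 0.048, Ulk1 -0.42 ± 0.053 and Atg9a 0.027 ± 0.075. The comparison with GFP shares its SP2bKD library with DMSO with the PMA comparison, so that these values are not independent of it. Summed thymic epithelial markers were 6819 FPKM in the library with DMSO and 15057 in that with GFP, and summed macrophage markers 7.51 and 4.50. The epithelial sum followed Krt5 (4246 and 10705 FPKM) and Krt14 (1785 and 3820), whereas Krt8 (311 and 143), Krt18 (89.6 and 49.5) and Epcam (209 and 153) were lower with GFP. Of the macrophage markers, Csf1r was 6.10 and 2.46 FPKM, and Cd68 1.25 and 1.96. Their part in the result was not tested. With a minimum of 10 FPKM or a median log2 ratio of 0 the count of lower members was 3, and with the latter 9.63% of all loci were higher and 9.47% lower.

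The main comparison of the study set GFP plus EICD against GFP. The cargo receptor genes Sqstm1 and Optn and the lysosomal enzyme gene Hexa stood higher with EICD, and most other genes of the list slightly higher, except with equal FPKM sums. More than 1.5-fold higher were 3 of 30 members (10%: Sqstm1, Optn and Hexa), near the 10.4% of 10687 loci. None was more than 1.5-fold lower, against 2.67%. Optn alone was more than 2-fold higher (3.33% of the members), near the 3.55% of all loci. Members thus passed either threshold upward about as often as all loci at the minimum of 1 FPKM. At a minimum of 10 FPKM, 26 members were tested, these 3 among them, and 6.09% of all loci were more than 1.5-fold higher.

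Sqstm1 (chr11:50199366-50210827, minus strand), the gene of p62, stood at 169.6 FPKM (DMSO) and 211 (PMA) in 427 cells, 207 and 199.9 in the same order in SP2bKD cells, 155 with GFP alone and 286 with EICD added. The library with EICD was above all others and that with GFP below all others, and the change was 0.88 ± 0.034, 1.84-fold. Against SP2bKD cells with DMSO the GFP library was -0.41 ± 0.037. Its locus shares 750 bases with Mrnip on the opposite strand.

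Optn (chr2:5017234-5064061, minus strand), the gene of optineurin, stood at 8.55 FPKM (DMSO) and 10.7 (PMA) in 427 cells, 7.02 and 6.86 in the same order in SP2bKD cells, 7.28 with GFP alone and 15.2 with EICD added. The value with EICD was the highest of the 6, the other SP2bKD libraries lay within 6.86 to 7.28 FPKM, and the change was 1.06 ± 0.16, 2.08-fold. An antisense gene (4930551O13Rik) shares 3854 bases of its locus, and whether the counting used strand is not given in the sources used here. The third receptor Nbr1 was closer to its base, at 0.24 ± 0.049.

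Hexa (chr9:59539473-59565105, plus strand), a subunit of the lysosomal enzyme hexosaminidase, stood at 21.97 FPKM (DMSO) and 21.1 (PMA) in 427 cells, 19.5 and 15.8 in the same order in SP2bKD cells, 15.7 with GFP alone and 28.7 with EICD added. The library with EICD was the highest, those with GFP and with PMA in SP2bKD cells the lowest, and the change was 0.87 ± 0.12, 1.83-fold. The changes of the other lysosome genes of the list were smaller. Lamp2 had 0.33 ± 0.031, Lamp1 0.31 ± 0.025, Ctsd 0.18 ± 0.039, Ctsb 0.16 ± 0.054 and Ctsl 0.097 ± 0.017.

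Both transcription factors were higher with EICD. Tfeb stood at 3.30 FPKM (DMSO) and 2.29 (PMA) in 427 cells, 2.28 and 1.66 in the same order in SP2bKD cells, 3.16 with GFP alone and 4.46 with EICD added. Its value with EICD was the highest of the 6, and the change over GFP was 0.50 ± 0.27, with that of Tfe3 at 0.37 ± 0.053. Among the other autophagy genes Wipi2 (0.35 ± 0.047), Atg4b (0.35 ± 0.072), Gabarap (0.33 ± 0.078), Ulk2 (0.33 ± 0.14) and Atg12 (0.32 ± 0.092) had values similar to those of Lamp1 and Lamp2. Gabarapl2 (-0.20 ± 0.091), Gabarapl1 (-0.16 ± 0.093) and Atg2a (-0.13 ± 0.079) stood lower, Atg5 had -0.078 ± 0.10 and Atg16l1 was level at 15.2 and 15.2 FPKM. The remaining initiation genes Becn1, Atg14, Ulk1 and Atg13 had 0.15, 0.11, 0.081 and 0.031.

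**Figure D4:**
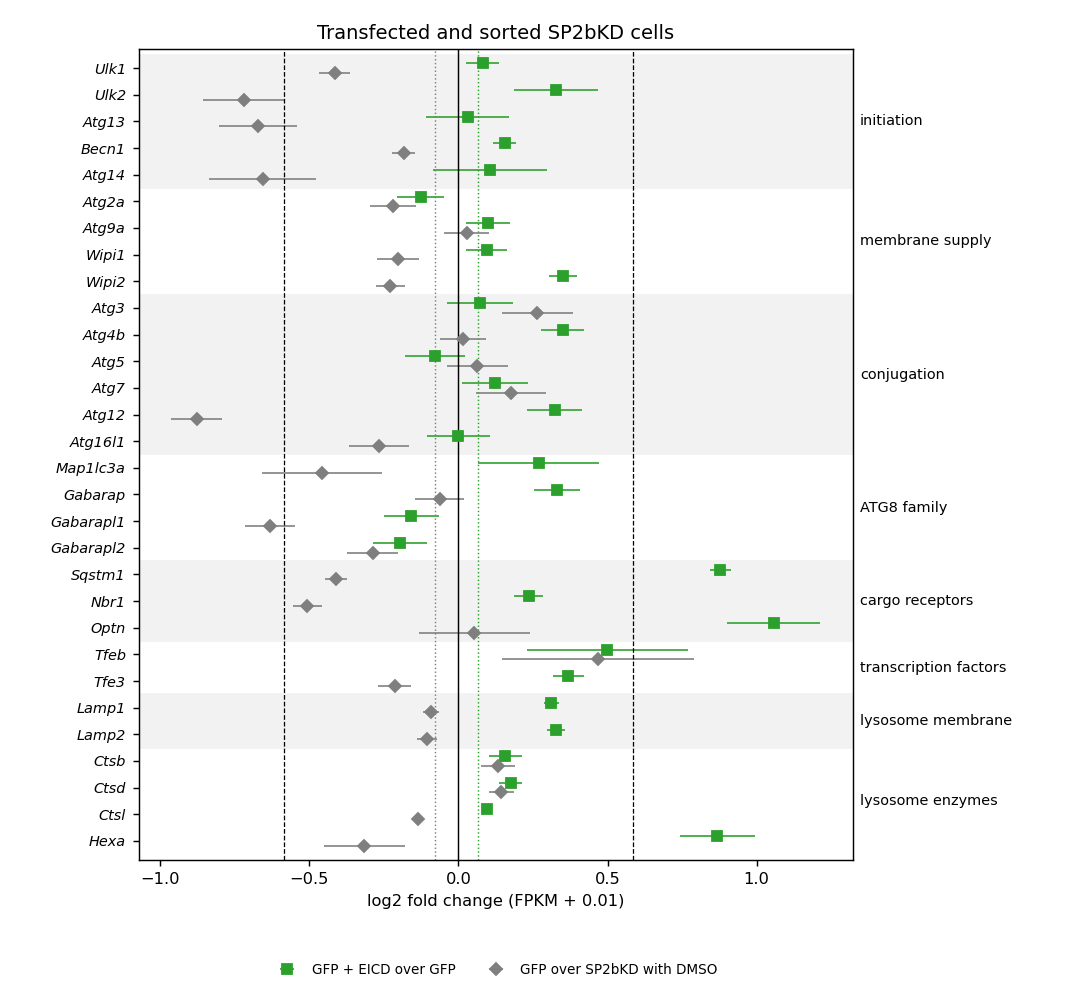
Log2 change of GFP plus EICD over GFP (green squares) and of GFP over SP2bKD cells with DMSO (grey diamonds) for the 30 genes, with 95% counting intervals as bars, the median of all loci dotted and 1.5-fold dashed. Sqstm1, Optn and Hexa are the green points beyond the right dashed line, and the grey points beyond the left one are Ulk2, Atg13, Atg14, Atg12 and Gabarapl1. The GFP library enters both series.

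The median with EICD was 0.17, with 25 of 30 members above 0 and 24 above the median of all loci, 0.066. With equal FPKM sums it turned to -0.016, where the median of all loci was -0.12 and 6.29% of all loci were higher against 7.44% lower, so that the members stayed 0.10 above all loci. By role the 3 cargo receptors had a median of 0.88, the 2 transcription factors 0.43, the 2 lysosomal membrane proteins 0.32, the 4 lysosome enzymes 0.17, the 5 initiation genes 0.11 and the 4 ATG8 genes 0.055. Over the alternatives the change ranged from 0.70 to 0.88 for Sqstm1, 0.87 to 1.06 for Optn and 0.69 to 0.87 for Hexa. Summed thymic epithelial markers were 15057 FPKM with GFP alone and 10899 FPKM with EICD added, and summed macrophage markers 4.50 and 5.01. Krt5 (10705 and 7993 FPKM), Krt14 (3820 and 2456) and Krt8 (143 and 70.2) were lower with EICD, and Cdh1 was 147 and 156. Csf1r was 2.46 and 2.37 FPKM, and Cd68 1.96 and 2.58. Their part in the result was not tested.

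Beside the 30 genes, 132 further genes of the same pathways were listed, of which 125 had a row. More than 1.5-fold lower with PMA were 16 of the 117 tested in 427 cells and 22 of 115 in SP2bKD cells, and 2 were higher in each line. As shares, the 13.7% and 19.1% that were lower lay near the 14.4% and 16.5% of all loci. Over the alternatives the count in 427 cells ran from 9 of 95 (minimum of 10 FPKM) to 33 of 115 (equal FPKM sums). All loci had 7.87% and 28.4% lower under these settings. For SP2bKD cells it ran from 14 of 95 (minimum of 10 FPKM) to 25 of 125 (no minimum), against 10.4% and 16.2% of all loci. Of the other lysosome genes 6 of 40 (15%) were lower in 427 cells, as were 9 of 39 (23.1%) in the SP2bKD line. At a minimum of 10 FPKM the counts were 2 of 28 and 4 of 28, and with equal FPKM sums 13 of 39 in 427 cells. Of the other autophagy genes 5 of 32 (15.6%) were lower in 427 cells and 6 of 32 (18.8%) in SP2bKD cells. These autophagy genes included Rb1cc1, which codes for FIP200, the scaffold of the ULK kinases. Rb1cc1 stood at 44.8 FPKM with DMSO and 21.2 with PMA in 427 cells and at 48.0 and 22.02 in SP2bKD cells. Its log2 change was -1.08 in 427 cells and -1.12 in SP2bKD cells. The protease Atg4c had -1.25 and -1.06 in the 2 lines.

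Of the nutrient sensing genes 5 of 30 (16.7%) were lower with PMA in 427 cells and 7 of 29 (24.1%) in SP2bKD cells. Sesn1, a sestrin that inhibits mTORC1, stood at 11.04 FPKM with DMSO and 3.64 with PMA in 427 cells and at 17.97 and 5.51 in SP2bKD cells, changes of -1.60 and -1.70. Prkaa2, a catalytic subunit of AMPK, had -1.23 and -1.43. Ddit4, an mTORC1 inhibitor, had -1.31 in 427 cells. From the lysosome list, Mitf, a relative of Tfeb, had -1.40 in 427 cells, on low levels of 1.72 FPKM with DMSO and 0.65 with PMA. The lysosomal amino acid transporter Slc38a9 had -1.11 in SP2bKD cells, at 2.66 and 1.23 FPKM. From the autophagy list, the mitophagy receptor Bnip3 had -1.28 in SP2bKD cells. None of the 15 proton pump genes with a row was past 1.5-fold in either line.

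Between SP2bKD and 427 cells with DMSO, 8 of 117 listed genes were higher and 8 lower (6.84% each), near the 8.25% and 6.3% of all loci. With equal FPKM sums 105 of 116 were higher and 1 lower, against 88.8% and 0.99% of all loci. With a minimum of 10 FPKM 6 of 96 were higher and 3 lower, against 5.22% and 3.56%. Rragb, a Rag GTPase, was at 1.46 FPKM in 427 cells and 0.019 in SP2bKD cells, too low for a fold change. Lysosomal enzymes differed in both directions, with Arsb at 21.5 and 5.03 FPKM, Ctsa at 35.1 and 14.5, Idua at 6.85 and 3.34, and Manba at 0.93 and 3.89 in 427 and SP2bKD cells. Bnip3 was at 15.1 and 35.3 FPKM. With PMA 4 of 116 were higher and 10 lower, against 6.22% of all loci in each direction. With equal FPKM sums 107 of 115 were higher and 0 lower, against 95.7% and 0.75% of all loci. The lower genes with PMA included Arsb at 15.8 and 5.15 FPKM, Ctsa at 30.6 and 10.8 and Epg5 at 8.44 and 4.61. With GFP against DMSO in SP2bKD cells, 2 of 115 were higher (1.74%) and 16 lower (13.9%), against 8.01% and 12% of all loci. With a median log2 ratio of 0 the lower count was 8 of 115, against 9.47% of all loci. The 6 furthest from 0 were Bnip3 (35.3 and 7.08 FPKM with DMSO and GFP), Calcoco1 (17.03 and 7.23), Sesn3 (9.71 and 4.33), Sesn1 (17.97 and 8.80), Acp2 (8.09 and 4.07) and Slc38a9 (2.66 and 1.47).

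With EICD, 26 of 116 listed genes were more than 1.5-fold higher (22.4%) and 1 lower, against 10.4% and 2.67% of all loci. Under equal FPKM sums 14 of 117 were higher and 2 lower, against 6.29% and 7.44% of all loci. At a minimum of 10 FPKM 17 of 100 were higher and 1 lower, against 6.09% and 2.09%. The lysosome genes made up most of the 26. Of 40 tested, 17 were higher (42.5%) and none lower, with a median of 0.51, against 10.4% of all loci higher and their median of 0.066. The count ranged from 8 to 20 and the median from 0.32 to 0.51 over the alternatives. The count of 8 of 40 was under equal FPKM sums, where 6.29% of all loci were higher. The other lists had 4 of 32 autophagy genes higher (12.5%), 2 of 15 proton pump genes (13.3%) and 3 of 29 nutrient sensing genes (10.3%), with medians of 0.22, 0.25 and 0.24.

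By size of change with EICD these genes were led by Gpnmb, a lysosomal glycoprotein on a newly assembled row (19.0 FPKM with GFP and 49.7 with EICD, 1.38), Sesn2, a sestrin (7.32 and 18.7, 1.36), and Naglu, a lysosomal glucosaminidase (2.15 and 5.21, 1.27). Mitf followed (0.80 and 1.79, 1.15), then Epg5, a tether of autophagosomes and lysosomes (4.47 and 9.43, 1.08), and Ddit4 (148.4 and 310.1, 1.06). Of the lysosome genes on this list with a promoter window, 6 of 16 that were more than 1.5-fold higher held the E-box CACGTG (37.5%), and 3 of 15 that were not (20%), against 8.09% of all genes with a window. These counts are small, the difference between them was not tested, and a match does not show a bound site.

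**Figure D5:**
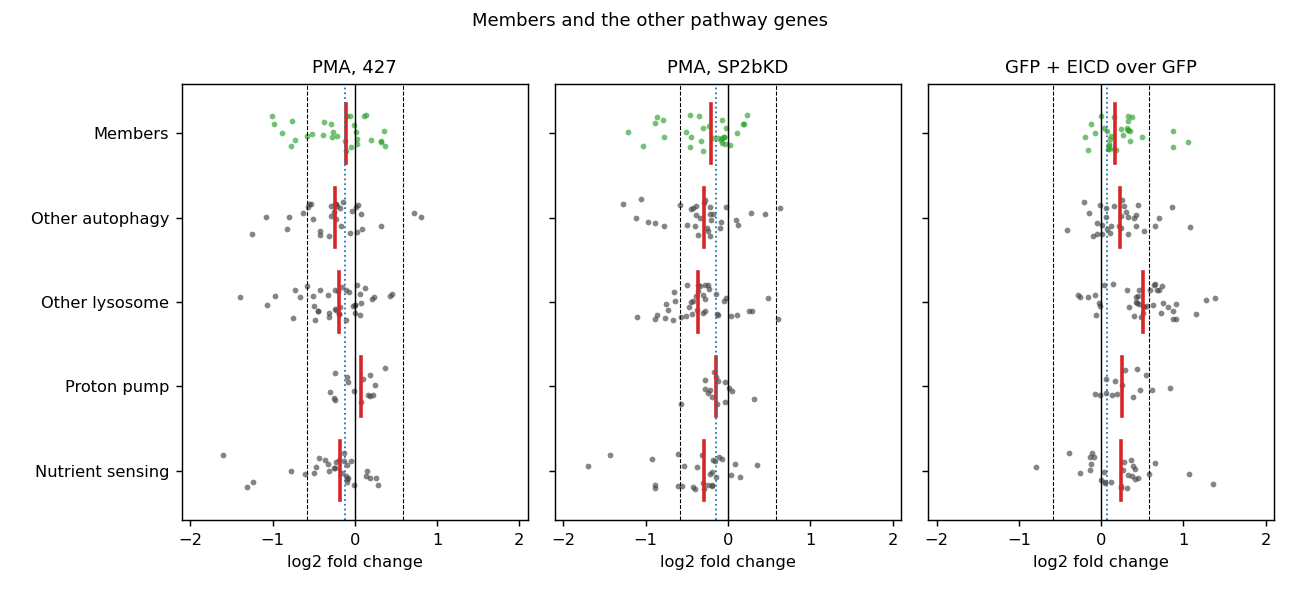
Log2 change of the 30 members (green) and of the other autophagy, lysosome, proton pump and nutrient sensing genes (grey) with PMA in 427 cells, with PMA in SP2bKD cells and with GFP plus EICD over GFP, with 1 point per gene, list medians as red bars, the median of all loci dotted and 1.5-fold dashed. In the right panel the red bar of the other lysosome genes, at 0.51, lies furthest to the right.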

How the data were processed

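Paired-end RNA-seq of 6 libraries, 1 per condition, was used. Per the methods of the study and the submitters' processing notes, the authors aligned reads with TopHat 2.1.1 to GRCm38 and computed FPKM with Cufflinks 2.1.1 and Cuffdiff 2.1.1 (the notes also list STAR 2.4.0b), and they deposited FPKM per locus, which depends on the assembled gene models. Log2 ratios of FPKM + 0.01 were computed with Python 3.11.15, NumPy 2.4.6 and pandas 2.3.3, and plots drawn with matplotlib 3.10.9. Loci needed an FPKM of 1 in at least 1 of the 2 libraries, and calls were made at 1.5-fold and 2-fold. Depth was estimated from the steps of low FPKM values of genes with transcripts of 2500 to 8000 bases (GENCODE M21), and it is approximate. On simulated data for EICD against GFP (21212 genes, 200 changed), 100% of raised and 100% of lowered genes passed 2-fold. Of the unchanged genes 0.195% passed 1.5-fold in either direction. These values cover counting error only. The shares of 100% depend on the size of change given to those genes. Recovery of genes changed by 1.5-fold to 2-fold, or by little more than 2-fold, was not tested. Promoter windows came from RefSeq on GRCm38.p6. All members are named, and of the other pathway genes at most 6 per comparison, those past 1.5-fold with the largest change. The members and lists were chosen with earlier results of these data known. The alternatives were other amounts added, other minima and 3 scalings of the libraries.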

Additional observations from a re-analysis of the deposited data

How the results depend on the processing

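Of 251 alternative values for the counts and medians, 226 stayed within 1.5 times the count or within 0.1 (log2) of the median, and 25 moved. Of 1419 for single genes 1258 stayed within 0.1, 160 moved and 1 reversed. A reversal is a sign change of a value past 1.5-fold in the report. Sign changes of smaller single-gene values are counted among those that stayed or moved. Among the 25 were 4 medians that changed sign, all with equal FPKM sums: those with EICD, of SP2bKD over 427 cells with DMSO and with PMA, and of the difference between the lines. With 0.1 or 1 added the count of members more than 2-fold lower with PMA in 427 cells was 0, and with 1 added that in SP2bKD cells was 1, that of members more than 1.5-fold lower in SP2bKD than in 427 cells with PMA 0, and that of members more than 2-fold higher with EICD 0. With a minimum of 10 FPKM, 1 member was more than 2-fold lower with PMA in SP2bKD cells and 3 more than 1.5-fold lower with GFP, and Atg14 in both lines and Ulk2 in SP2bKD cells had no PMA value. With equal upper quartiles 2 members were more than 2-fold lower with PMA in 427 cells. With a median log2 ratio of 0 that count was 0, the count in SP2bKD cells was 1 with a median of -0.083, and 3 members were more than 1.5-fold lower with GFP. With equal FPKM sums, which shift all genes, 5 members were more than 2-fold and 10 more than 1.5-fold lower with PMA in 427 cells (median -0.36), 12 more than 2-fold and 28 more than 1.5-fold higher in SP2bKD cells with DMSO (median 0.95), 22 and 30 higher and 0 lower with PMA (median 1.13), and 0 more than 2-fold higher with EICD (median -0.016). The difference between the lines in the PMA change was then -0.21, and Optn in SP2bKD over 427 cells with PMA reversed to 0.61. No paired analysis was possible because the labels give 1 library per condition and so share fewer than 2 replicate numbers, and no library could be left out. A model of PMA across both lines was not fitted. Depth limits Tfeb the most, with an estimated 113 fragments in SP2bKD cells with PMA.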
